A study of Mus musculus with 20 samples.

Results

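Chemokine ligands are small secreted proteins that steer the movement of white blood cells, and 32 of the 28025 genes in the tumor tables were taken as ligands. A gene was a member when its name began with Ccl, Cxcl, Cx3cl or Xcl followed by a number and its type was protein-coding. Of these 32 genes, 16 were also listed in the cell line tables, which hold 14701 genes. The name of Cxcl11 also fitted, but the tables class it as a polymorphic pseudogene (454 reads over the 10 tumors), so it was no member. MB49, a bladder cancer line, came from a male mouse and is grown here in a form with and a form without the Y chromosome. RNA was sequenced from 4 groups of 5 libraries, which the labels name by genotype and sample type. These are cultured Y-negative MB49 cells (BN2, BN3, BN6, BN9 and BN10), cultured Y-positive MB49 cells (MB8, MB11, MB17, MB19 and MB34), subcutaneous Y-negative MB49 tumors (MN11 to MN15) and subcutaneous Y-positive MB49 tumors (MP6 to MP10). The cultures were kept in DMEM with 10% serum, and all tumors grew in wild-type C57BL/6 males, whose own cells carry a Y chromosome. The labels give no age, nor whether the 5 libraries of a group were grown, cloned or taken from animals separately. The p-values therefore cover only library-to-library spread, which may be technical.

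A chemokine binds receptors with several membrane-spanning segments on leukocytes and forms a gradient that the cell follows. Ligands are grouped by the spacing of their first cysteines (CC, CXC, C and CX3C) and by receptor: CXCR2 ligands attract neutrophils, CCR2 ligands monocytes, CXCR3 ligands activated T and NK cells, CCR3 ligands eosinophils, and CCR4 ligands regulatory and other helper T cells. Many are switched on by NF-kB after an inflammatory stimulus or by interferons, and carcinoma cells, macrophages, dendritic cells and fibroblasts are all known sources in tumors.

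The promoters below are shown because Cxcl3, Cxcl1 and Cxcl2 were the leading ligands of the cultured cells together with Ccl2, Ccl20 was seen in culture and nearly absent from tumors, Cxcl10 was higher in tumors, and Ccl22 was the ligand that differed between the tumor genotypes. Each run holds the 250 bases before the gene's start in RefSeq (build GRCm38.p6), written 5′ to 3′ on the gene's strand. Capitals mark matches, on either strand, to the NF-kB consensus, or to GAAA followed by any 2 bases and GAAA again, a pattern like the interferon-stimulated response element. The decamer GGGAATTTCC is the form of the consensus that Cxcl3, Cxcl1 and Cxcl2 share, and it was chosen for that. Where matches overlap, as the decamer does with NF-kB consensus matches on both strands, the capitals cover them all.
Cxcl3 promoter (chr5:90785851-90786100, plus strand): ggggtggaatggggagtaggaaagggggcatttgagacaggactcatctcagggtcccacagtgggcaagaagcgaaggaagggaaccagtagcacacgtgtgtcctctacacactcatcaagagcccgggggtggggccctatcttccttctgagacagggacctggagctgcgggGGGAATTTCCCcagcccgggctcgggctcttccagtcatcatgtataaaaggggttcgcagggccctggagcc
Cxcl1 promoter (chr5:90890995-90891244, plus strand): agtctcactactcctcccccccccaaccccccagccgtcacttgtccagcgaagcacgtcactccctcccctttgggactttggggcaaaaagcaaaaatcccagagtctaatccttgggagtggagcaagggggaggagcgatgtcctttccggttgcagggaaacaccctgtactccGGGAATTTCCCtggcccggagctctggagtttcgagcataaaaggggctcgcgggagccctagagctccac
Cxcl2 promoter (chr5:90903649-90903898, plus strand): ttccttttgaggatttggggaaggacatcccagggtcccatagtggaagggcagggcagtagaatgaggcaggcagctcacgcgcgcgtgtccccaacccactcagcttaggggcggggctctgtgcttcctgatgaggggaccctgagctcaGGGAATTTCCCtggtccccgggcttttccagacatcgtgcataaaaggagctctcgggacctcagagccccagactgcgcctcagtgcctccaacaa
Ccl20 promoter (chr1:83116516-83116765, plus strand): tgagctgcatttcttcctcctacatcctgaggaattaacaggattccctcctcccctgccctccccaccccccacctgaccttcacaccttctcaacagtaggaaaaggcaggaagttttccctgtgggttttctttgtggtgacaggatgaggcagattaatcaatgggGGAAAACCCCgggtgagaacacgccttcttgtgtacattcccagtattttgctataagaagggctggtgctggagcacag
Cxcl10 promoter (chr5:92348890-92349139, minus strand): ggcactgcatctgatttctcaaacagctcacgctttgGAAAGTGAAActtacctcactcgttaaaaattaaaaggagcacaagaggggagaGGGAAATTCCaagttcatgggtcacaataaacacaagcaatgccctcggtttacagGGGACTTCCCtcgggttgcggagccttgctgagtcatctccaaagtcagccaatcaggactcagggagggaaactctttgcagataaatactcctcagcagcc
Ccl22 promoter (chr8:94745434-94745683, plus strand): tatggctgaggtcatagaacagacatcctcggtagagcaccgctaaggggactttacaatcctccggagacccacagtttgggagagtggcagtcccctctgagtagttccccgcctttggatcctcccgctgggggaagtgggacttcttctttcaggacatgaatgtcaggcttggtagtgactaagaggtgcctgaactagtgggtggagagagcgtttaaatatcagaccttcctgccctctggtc

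Promoters of 23 of the 32 ligands were found in RefSeq, and Ccl2 was not among them. The search covered RefSeq's whole windows, which run 50 bases past the start. The decamer lay in the windows of Cxcl3, Cxcl1 and Cxcl2 and in none of the other matched ligands, where 0.0883% of 32851 promoters of the same length hold it. The decamer was chosen as the form these 3 share, so its presence there was fixed in advance and tests nothing. It began 73 bases before the start of Cxcl3, 71 before that of Cxcl1 and 97 before that of Cxcl2, always on the gene's own strand. The NF-kB consensus was found in 7 ligands, namely those 3, Ccl20, Cxcl10, Ccl9 and Ccl27a, against 4.51% of all promoters. The interferon-like pattern was found in Cxcl10, starting 213 bases before its start, and in Cxcl14, against 3.44% of all promoters. The Ccl22 window held none of these motifs. Its printed part ends at 94745683, past the start of 94745590 in the annotation used for the counts, so it lies partly inside that gene. A match describes the sequence only, and whether any factor bound there was not measured. Many ligands are also neighbours: Cxcl5, Cxcl3, Cxcl15, Cxcl1 and Cxcl2 lie between 90759360 and 90905938 on chromosome 5 (mm10), Ccl2, Ccl7, Ccl11, Ccl12, Ccl8 and Ccl1 between 82035571 and 82305690 on chromosome 11, Ccl5, Ccl9, Ccl6, Ccl3 and Ccl4 between 83525778 and 83664683 on chromosome 11, and Ccl22, Cx3cl1 and Ccl17 between 94745590 and 94812036 on chromosome 8.

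Libraries held 14557118 to 21180885 reads in genes. The Y-linked gene Kdm5d had 0 reads over the Y-negative cultures and 6.02 to 40.6 reads per 1000000 (CPM) in the Y-positive ones, and it stood at 2.52 to 4.17 CPM in Y-negative and 10.2 to 27.6 CPM in Y-positive tumors. Of the epithelial markers Krt8 and Krt18 were high in every library, while the uroplakin gene Upk2 of mature urothelium had no reads in any Y-negative tumor and Epcam stayed at or below 1.198 CPM in all 20 libraries. Ptprc, the white blood cell gene CD45, was at 0 to 1.196 CPM in culture and 69.2 to 147 CPM in tumors. The Y-negative tumors form sets: MN11, MN13 and MN14 differed from each other, and MN12 from MN15, by 7.47 to 14.7 per degree of freedom in a chi-square comparison of counts over genes, whereas pairs across these sets differed by 90.1 to 127. Cultures were uneven too: MB8 and MB11 differed by 12.95, and BN10 differed from BN2, BN3 and BN9 by 171 to 177 and from BN6 by 75.4. The ligand counts are given below with and without the sets of Y-negative tumors.

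The ligands split by where their reads were found. Cultured MB49 cells alone gave 13 of the 32 at a mean of at least 1 CPM over the 10 cultures: Ccl2, Ccl5, Ccl7, Ccl9, Ccl17, Ccl20, Ccl25, Ccl27a, Cx3cl1, Cxcl1, Cxcl2, Cxcl3 and Cxcl10. Another 13 reached 1 CPM in tumors only. Of these, Ccl6, Ccl8 and Cxcl16 were measured in culture below that level, and Ccl3, Ccl4, Ccl11, Ccl12, Ccl22, Ccl24, Cxcl9, Cxcl12, Cxcl14 and Xcl1 were not listed in the cell line tables and so have no culture value here. The other 6 (Ccl1, Ccl28, Cxcl5, Cxcl13, Cxcl15 and Cxcl17) were below 1 CPM on average in tumors and not listed in culture. Ccl27a at 1.48 CPM was the lowest ligand inside the culture class and Ccl6 at 0.42 CPM the highest outside it, and in tumors Xcl1 at 1.56 CPM and Cxcl5 at 0.93 CPM lay on either side of the threshold.

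**Figure D1:**
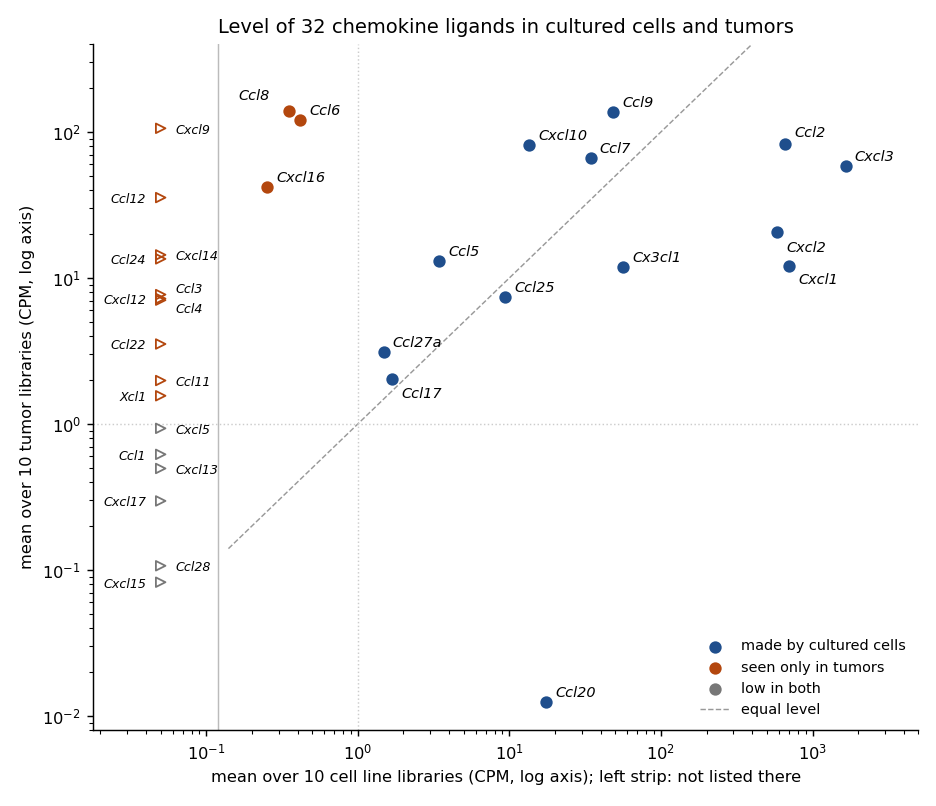
Mean level of each of the 32 ligands over the 10 cell line libraries (x axis, CPM, log scale) and over the 10 tumor libraries (y axis, CPM, log scale); open triangles in the left strip are ligands not listed in the cell line tables, and dotted lines mark 1 CPM. Cxcl1, Cxcl2, Cxcl3, Ccl2, Cx3cl1 and Ccl20 lie far to the right of the line of equal level, and Ccl6, Ccl8 and Cxcl16 far above it.

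The CXCR2 ligands were the most abundant chemokine transcripts of cultured MB49 cells and were 21.2 to 119 times lower in the tumors. Cxcl3, a neutrophil attractant (ENSMUSG00000029379, chromosome 5, 90786103 to 90789600), stood at 1590.0, 914, 524, 3216 and 1031 CPM in the Y-negative cultures and at 2021, 1489, 2567, 871 and 2332 CPM in the Y-positive ones. Its tumor levels were 58.4, 71.3, 37.7, 54.8 and 63.6 CPM in Y-negative and 39.0, 67.6, 57.2, 73.8 and 60.3 CPM in Y-positive tumors. No tumor came near any culture: the lowest culture was 7.34 times the highest tumor in the Y-negative and 11.8 times in the Y-positive groups.

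Cxcl1, the mouse gene known as KC (chromosome 5, 90891241 to 90893115), followed the same pattern at a lower level. Its cultures held 715, 339.8, 319.6, 1112 and 289.8 CPM (Y-negative) and 994, 862, 1249.7, 291 and 849 CPM (Y-positive), and its tumors 18.8, 30.6, 8.21, 11.0 and 16.1 CPM (Y-negative) and 3.47, 8.31, 6.62, 6.10 and 11.1 CPM (Y-positive). Mean culture levels were 32.7 times the tumor mean in the Y-negative and 119 times in the Y-positive groups. Cxcl2, the neutrophil attractant also called MIP-2 (chromosome 5, 90903871 to 90905938), stood at 471, 339, 275, 1644 and 253 CPM in Y-negative and 423, 331, 977, 292 and 844 CPM in Y-positive cultures. In tumors Cxcl2 was at 33.5, 43.1, 10.6, 21.7 and 31.7 CPM (Y-negative) and at 6.88, 15.5, 11.3, 19.2 and 11.4 CPM (Y-positive). Culture and tumor libraries of these genes did not overlap in either genotype.

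Ccl2, the main attractant of monocytes (chromosome 11, 82035571 to 82037453), was the other abundant ligand of the cultures. It stood at 1145, 305, 90.4, 1161 and 83.5 CPM in Y-negative and at 826, 636, 904, 173 and 1279 CPM in Y-positive cultures. Tumors held 68.2, 92.2, 45.7, 51.4 and 109 CPM (Y-negative) and 70.1, 73.6, 90.6, 139 and 84.1 CPM (Y-positive). The Y-negative cultures BN6 and BN10 lay within the range of the tumors, so these groups overlapped, while all Y-positive cultures were above all Y-positive tumors. Cx3cl1, a membrane-tethered ligand of CX3CR1 that is shed by proteases, stood at 51.0 ± 24.6 CPM (SD, n = 5) in Y-negative and 61.6 ± 22.9 CPM in Y-positive cultures against 12.7 ± 1.94 and 10.9 ± 2.49 CPM in the tumors, with no overlap.

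Ccl20, the ligand of CCR6, was seen in the cultures and almost not in the tumors. It held 34.1, 4.03, 2.29, 40.7 and 0.22 CPM in Y-negative and 16.3, 11.1, 30.4, 4.40 and 31.5 CPM in Y-positive cultures. The 5 Y-negative tumors had 2 reads in all against 1585 in the cultures, which is a 737-fold ratio (95% interval from counting error 204 to 6093). The 5 Y-positive tumors had 0 reads against 1603, at least 581-fold lower when the group's total is set to 3 reads, the limit that a count of 0 allows. These intervals and floors cover counting error only.

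Cxcl10 and Ccl5 were called higher in the tumors of both genotypes, and Ccl7 and Ccl9 in 1 genotype each. Cxcl10, an interferon-induced ligand of CXCR3, was at 15.1, 7.43, 5.48, 27.2 and 8.91 CPM in Y-negative cultures and 66.4, 96.0, 65.1, 72.1 and 109.5 CPM in Y-negative tumors. The Y-positive cultures held 17.0, 16.3, 19.4, 6.18 and 12.2 CPM and the Y-positive tumors 59.9, 96.2, 87.0, 60.0 and 99.8 CPM, again without overlap. Ccl7, a further CCR2 ligand, was at 33.7, 8.82, 5.74, 18.2 and 7.96 CPM in Y-negative cultures, below all Y-negative tumors (40.1, 73.5, 39.3, 35.2 and 80.3 CPM). In the Y-positive groups the Ccl7 values of 61.9, 54.7, 62.8, 22.2 and 67.6 CPM in culture overlapped with 41.7, 44.5, 83.9, 137 and 87.3 CPM in tumors. Ccl9, a CCR1 ligand made by macrophages, overlapped in both genotypes, with 65.8 ± 32.9 and 30.5 ± 20.4 CPM (SD, n = 5) in Y-negative and Y-positive cultures and 124 ± 59.2 and 150 ± 74.1 CPM in the tumors. Ccl5, made by T and NK cells among others, rose from 3.63 ± 2.45 to 9.95 ± 3.18 CPM (Y-negative, overlapping) and from 3.28 ± 1.53 to 16.1 ± 4.85 CPM (Y-positive, not overlapping).

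**Figure D2:**
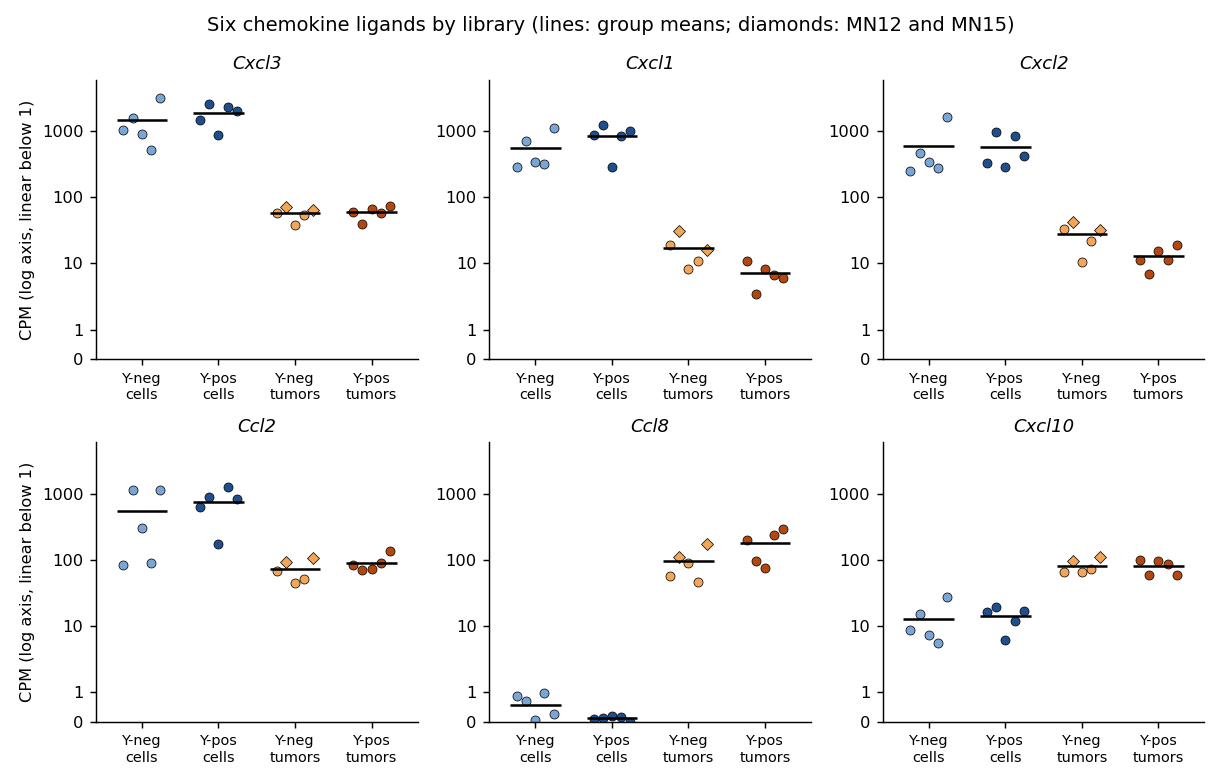
Level of 6 ligands in each library (y axis, CPM, log scale above 1 and linear below) in the 4 groups of 5; points are libraries, diamonds are MN12 and MN15, and bars are group means. Cxcl3, Cxcl1 and Cxcl2 are lower in every tumor than in every culture, Ccl2 overlaps in the Y-negative groups, and Ccl8 and Cxcl10 are higher in every tumor.

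Over the 16 ligands listed in both kinds of table, edgeR's quasi-likelihood test called 6 higher and 6 lower in Y-negative tumors than in Y-negative cultures, beside 28.1% of all genes called higher and 27.9% called lower. In the Y-positive groups it called 7 higher and 6 lower, beside 31.7% and 30.1% of all genes. The same 6 ligands were lower in both: Cxcl1 (log2 change -5.18 ± 0.50, SE, in Y-negative and -7.06 ± 0.54 in Y-positive), Cxcl3 (-4.83 ± 0.43 and -5.12 ± 0.44), Cxcl2 (-4.56 ± 0.57 and -5.65 ± 0.60), Ccl2 (-3.08 ± 0.63 and -3.22 ± 0.63), Cx3cl1 (-2.18 ± 0.29 and -2.65 ± 0.30) and Ccl20. Adjusted p-values of these 6 in edgeR's test were at most 0.000288. Ccl6, Ccl8, Cxcl16, Cxcl10 and Ccl5 were higher in both, Ccl7 was called in the Y-negative groups (log2 change 1.70 ± 0.45, adjusted p = 0.00268 in edgeR's test), and Ccl9 (2.14 ± 0.44, adjusted p = 0.000246) and Ccl27a (1.34 ± 0.36, adjusted p = 0.00309) in the Y-positive groups. Since the split into classes used the same levels, these counts describe it and do not test it. In bulk tissue, fewer cells of a type and less RNA per cell cannot be told apart.

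Of the ligands seen only in tumors, Ccl8 (138.6 CPM), Ccl6 (119.8 CPM) and Cxcl9 (105.8 CPM, described below) had the highest means over the 10 tumors. Ccl8 (chromosome 11, 82115185 to 82116799) was counted here with the CCR2 ligands, and which receptors it uses was not measured. It stood at 58.2, 113, 89.0, 46.2 and 176 CPM in Y-negative and 97.5, 75.8, 239, 292 and 199.7 CPM in Y-positive tumors, against at most 0.99 CPM in any culture. Ccl6, a CCR1 ligand of myeloid cells, was at 79.6, 102.5, 71.7, 58.4 and 122 CPM (Y-negative) and 117, 68.2, 146, 321 and 111 CPM (Y-positive), against at most 0.94 CPM in culture. Cxcl16, the membrane-bound ligand of CXCR6, was at 28.002, 44.5, 35.6, 22.9 and 41.6 CPM (Y-negative) and 43.3, 43.5, 65.6, 44.6 and 46.9 CPM (Y-positive), against at most 0.47 CPM in culture. Ccl8, Ccl6 and Cxcl16 were absent or near 0 in the cultures, as was Ptprc. The macrophage and monocyte markers Csf1r and Lyz2 were at most 0.47 and 5.59 CPM in culture and reached 132 and 1557 CPM in tumors. The summed level of that list was 51.3 to 308 CPM in Y-negative and 121 to 201 CPM in Y-positive cultures (5 of 8 markers listed), where Cd68 and Mrc1 made up most of it, and 1073 to 1977 and 1025 to 1890 CPM in the tumors (8 of 8 listed). The part of such cells in the ligand levels was not tested.

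On the authors' length-corrected scale (FPKM), which allows levels to be compared between genes, culture and tumor had different ligand mixtures. CXCR2 ligands made up 52.1 to 79.7% of the summed ligand FPKM in Y-negative and 59.1 to 70.7% in Y-positive cultures, but 4.68 to 10.1% and 2.68 to 6.08% in the tumors. CCR2 ligands, with Ccl8 counted among them, made up 41.6 to 52.6% in Y-negative and 43.7 to 53.5% in Y-positive tumors. Ccl8 alone had a mean of 189 of that group's 392 FPKM in Y-negative and 354 of 628 FPKM in Y-positive tumors. The share of the CCR2 group thus depends on counting Ccl8 in it. Ccl3, Ccl4, Ccl5, Ccl6 and Ccl9 together made up 23.9 to 27.0% in Y-negative and 20.7 to 29.9% in Y-positive tumors. Ccl8 ranked first by FPKM in every tumor library, with 16.6 to 32.04% of the ligand total, and Ccl6 came second except in MP7, where Ccl2 did. In every culture Cxcl3 or Ccl2 ranked first. The shares in culture are taken over the 16 ligands listed there. Over these groups the CXCR3 ligands Cxcl9 and Cxcl10 together held 10.8 to 15.02% of ligand FPKM in Y-negative and 5.78 to 16.8% in Y-positive tumors, the lowest in MP9.

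**Figure D3:**
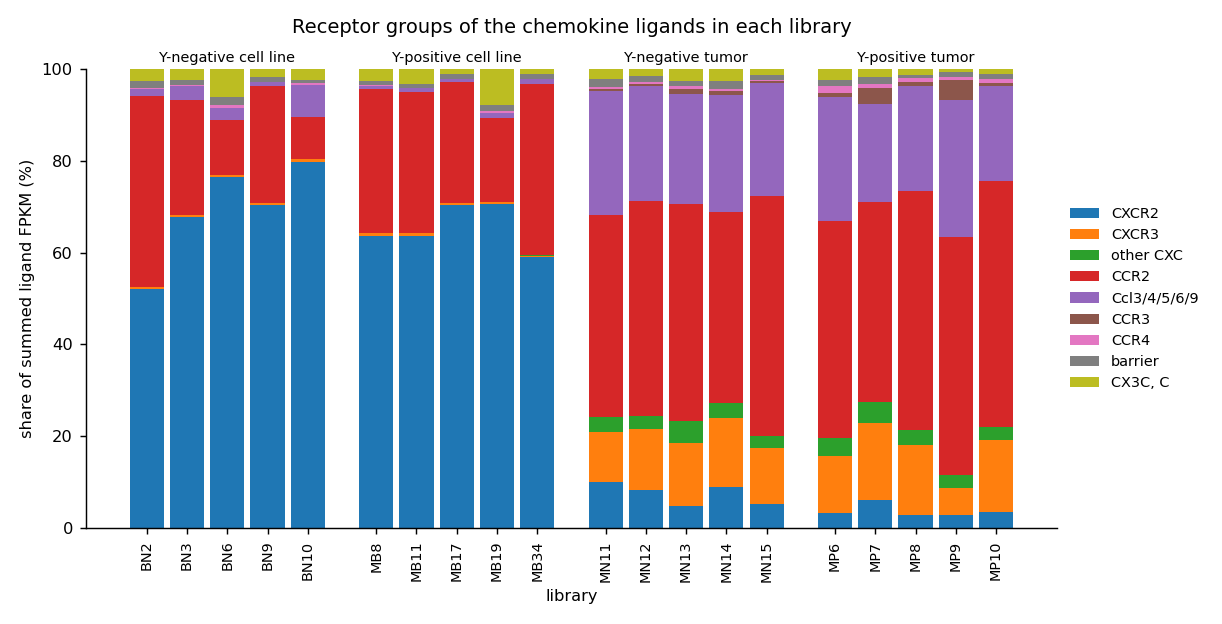
Share of the summed ligand FPKM (y axis, percent) held by each receptor group in each of the 20 libraries (x axis); colors are receptor groups. CXCR2 ligands hold 52.1 to 79.7% in cultures and 2.68 to 10.1% in tumors, where CCR2 ligands (Ccl8 counted among them) and the group of Ccl3, Ccl4, Ccl5, Ccl6 and Ccl9 take the largest shares.

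The cultures of each genotype spread widely. Summed over the 16 listed ligands, they held 1325 to 7374 CPM (Y-negative) and 1776 to 5892 CPM (Y-positive). BN9 had the highest level of 8 of the 13 ligands tested in the Y-negative cultures, and MB19 the lowest of 9 of the 13 in the Y-positive ones. The 6 cultures with the highest sum, MB11, BN2, MB8, MB34, MB17 and BN9, were also the 6 with the most Nfkbia (814 to 1234 CPM against 220 to 583 CPM) and the most Tnfaip3 (137 to 246 CPM against 28.002 to 117 CPM). Both are inhibitors of NF-kB that NF-kB itself induces. For Relb, a subunit of NF-kB, 5 of these 6 cultures were among the highest 6, and the ranges overlapped (70.8 to 117 CPM against 62.6 to 79.8 CPM). Of the list of inducers and their factors, 9 genes were measured in culture, and the order was looked at only for Nfkbia, Tnfaip3 and Relb. The 6 cultures were picked by their ligand sums, and the share of all genes that split the cultures the same way is not given here. The values are from the same libraries and are given as a description, and a part of NF-kB in the spread was not tested.

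Cultured Y-negative and Y-positive cells were compared to ask whether loss of the Y chromosome goes with another ligand output. None of the 13 ligands tested was called by edgeR's quasi-likelihood test, beside 0.0161% of all genes called higher and 0.0161% called lower. Those with an unadjusted p under 0.05 were 2, where 16.9% of all genes passed that mark: Ccl7, at -1.90 ± 0.46 (log2 change ± SE, adjusted p = 0.102), and Ccl9, at 1.04 ± 0.40 (adjusted p = 0.224). Ccl7 stood at 14.9 ± 11.5 CPM (SD, n = 5) in Y-negative and 53.8 ± 18.3 CPM in Y-positive cultures, where BN2 (33.7 CPM) lay above MB19 (22.2 CPM), so the groups overlapped. For Ccl9 the values were 57.8, 53.2, 33.1, 64.1 and 121 CPM against 25.8, 22.5, 21.8, 15.9 and 66.5 CPM, and MB34 lay above all but BN10. The abundant ligands had adjusted p-values of 0.440 to 0.994, with log2 changes of Cxcl1 at -0.66 ± 0.43, Cxcl3 at -0.40 ± 0.44, Cxcl2 at -0.01 ± 0.54, Ccl2 at -0.50 ± 0.71, Cx3cl1 at -0.30 ± 0.34 and Cxcl10 at -0.19 ± 0.42. Over the 13, 10 changes were negative and the median was -0.19, against 0.02 over all genes. No ligand had groups that did not overlap, where 2.76% of all genes had this with Y-negative higher and 1.06% with Y-negative lower. DESeq2, and the model over all 20 libraries, each called Ccl7 (adjusted p = 0.0202 and 0.0229, beside 1.38% and 0.859% of all genes called lower and 2.41% and 2.47% called higher), and a ligand that missed the threshold is not shown to be equal in both.

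In tumors, Ccl22 was the ligand that differed by genotype. Ccl22, a CCR4 ligand made by dendritic cells and macrophages (ENSMUSG00000031779, chromosome 8, 94745590 to 94751699), stood at 1.28, 1.74, 1.65, 1.93 and 0.59 CPM in Y-negative tumors and at 5.89, 5.16, 5.60, 6.73 and 4.70 CPM in Y-positive ones. All 5 Y-negative tumors were below all 5 Y-positive tumors. Its log2 change was -1.98 ± 0.30 (SE), with adjusted p = 0.00749 in edgeR's quasi-likelihood test. It was the 1 ligand called lower among the 26 that passed the filter on low counts, beside 1.0% of all genes called lower, and 0 were called higher, beside 1.45%. It was also the 1 ligand tested whose groups did not overlap, beside 3.39% of all genes with Y-negative tumors lower and 2.06% with Y-negative tumors higher. An unadjusted p under 0.05 was reached by 12 ligands, 10 lower and 2 higher, where 22.7% of all genes passed that mark. With 26 ligands tested these counts are small, and nothing is read from them about the ligands as a group.

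Ccl17, the other CCR4 ligand, which lies near it on chromosome 8, gave 0.61, 1.34, 1.18, 0.34 and 1.34 CPM in Y-negative tumors against 2.92, 1.31, 3.82, 3.82 and 3.49 CPM in Y-positive ones. Only MP7 overlapped with the Y-negative tumors, and the log2 change of -1.65 ± 0.44 had adjusted p = 0.0612 in edgeR's test. Cultured cells held Ccl17 as well, at 1.64 ± 0.71 CPM (SD, n = 5) in Y-negative and 1.75 ± 0.38 CPM in Y-positive cultures. Ccl17 and Ccl11 below are outside the rule for ligands given in full and were chosen after their values were seen. Ccl1, a CCR8 ligand, was below the filter at 0.21 ± 0.17 against 1.02 ± 0.36 CPM (SD, n = 5). Of the receptors, Ccr7 of migrating dendritic cells fell, from 6.39, 4.27, 8.39, 7.93 and 6.00 CPM in Y-positive to 2.49, 2.52, 1.32, 2.84 and 1.24 CPM in Y-negative tumors (log2 change -1.68 ± 0.30, adjusted p = 0.0165 in edgeR's test). Of 7 dendritic cell markers listed, Ccr7 was the 1 called, Itgax stood at -0.59 ± 0.16 (adjusted p = 0.0645), and the summed level of the list was 59.3 to 93.6 CPM in Y-negative and 72.8 to 94.8 CPM in Y-positive tumors. None of these markers was at 0 in any tumor. Ccr7 was also measured at 0.81 to 7.65 CPM in the cultures, and its call was lost without MP8 (adjusted p = 0.0550) and without MN11, MN13 and MN14 (adjusted p = 0.186). Of 5 mast cell markers 3 were called lower (Mcpt4, Cma1 and Tpsb2), the sum of the list being 10.8 to 30.0 CPM in Y-negative and 24.7 to 80.5 CPM in Y-positive tumors. The skin keratinocyte gene Krt14 was called lower too, and that list summed to 19.3 to 28.002 CPM against 75.6 to 144 CPM. Without MN12 and MN15 these 4 genes were still called. Without MN11, MN13 and MN14, Krt14 was (adjusted p = 0.0122), while Mcpt4, Cma1 and Tpsb2 stood at adjusted p = 0.112, 0.109 and 0.187. The part of these cell types in the Ccl22 and Ccl17 levels was not tested.

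Ccl24 had the most negative estimate of the 26 tested ligands, on uneven values. This eosinophil attractant, eotaxin-2, stood at 2.09, 4.14, 6.00, 3.18 and 3.66 CPM in Y-negative tumors and at 5.45, 23.9, 9.68, 70.6 and 6.39 CPM in Y-positive ones. MP9 and MP7 held most of it, MP6 lay below MN13, and the log2 change of -2.65 ± 0.66 had adjusted p = 0.0545 in edgeR's test. Ccl11, or eotaxin-1, was at 1.08, 0.78, 1.42, 1.13 and 0.43 CPM against 1.21, 2.14, 3.17, 5.36 and 3.10 CPM, a log2 change of -1.66 ± 0.43 (adjusted p = 0.0596). Only MP6 lay within the range of the Y-negative tumors for Ccl11.

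Among the other CXC ligands, Cxcl12, which stromal cells make and CXCR4 binds, was at 6.19, 2.86, 3.78, 3.23 and 4.03 CPM in Y-negative and 8.09, 3.92, 9.52, 21.9 and 8.71 CPM in Y-positive tumors. MP7 lay among the Y-negative tumors and MP9 far above all others (log2 change -1.41 ± 0.39, adjusted p = 0.0725 in edgeR's test). Its receptor gene Cxcr4 had the opposite sign, at 0.87 ± 0.25 (adjusted p = 0.0778). Cxcl14 and Cxcl16 also had negative changes, the latter at -0.50 ± 0.21 (adjusted p = 0.186). Of 8 fibroblast markers, Dcn was called higher and Lum, Pi16 and Col3a1 lower in Y-negative tumors (all 4 also without MN12 and MN15, none without MN11, MN13 and MN14, at adjusted p = 0.0631 to 0.136), the summed level of the list being 646 to 1455 CPM against 915 to 1657 CPM, and the part of such cells in the Cxcl12 level was not tested.

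**Figure D4:**
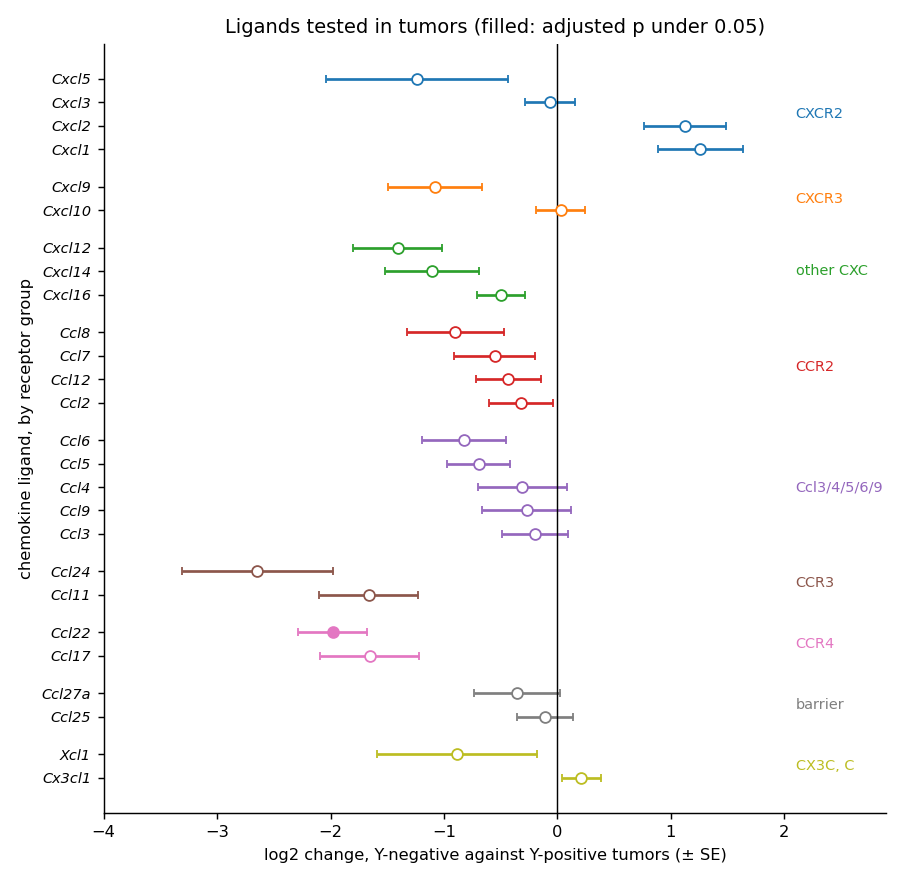
Log2 change (x axis) of the 26 tested ligands in Y-negative against Y-positive tumors with its standard error, grouped by receptor (y axis); filled points have adjusted p under 0.05. Ccl22 is the 1 filled point at -1.98, and 22 of the 26 estimates lie below 0.

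Of the 4 tested CXCR2 ligands, Cxcl1 and Cxcl2 had estimates above 0 and Cxcl3 and Cxcl5 below, and none was called. Cxcl1 was 17.0 ± 8.70 CPM (SD, n = 5) in Y-negative and 7.12 ± 2.82 CPM in Y-positive tumors, a log2 change of 1.26 ± 0.37 with adjusted p = 0.0855 in edgeR's test. Its Y-negative tumors MN13 and MN14 lay below MP10. Cxcl2 was 28.1 ± 12.4 CPM against 12.9 ± 4.67 CPM, at 1.13 ± 0.36 (adjusted p = 0.107), where MN13 fell among the Y-positive tumors. Cxcl3 was at -0.07 ± 0.22 with overlapping groups. Of 7 neutrophil markers 6 had a positive estimate, with a median log2 change of 0.09 over the list, S100a9 stood at 1.19 ± 0.43 (adjusted p = 0.139), and none was called. The summed level of these 7 markers was 131, 235, 51.9, 79.8 and 199.6 CPM in MN11 to MN15. In the Y-positive tumors it was 43.2 to 94.0 CPM, and at most 1 marker was at 0 in a tumor. Among the Y-negative tumors MN12 was highest and MN13 lowest for this sum as for Cxcl1 and Cxcl2. MN15 lay above MN11 for the sum but below it for both ligands, and the order in Y-positive tumors is not given. The part of neutrophils in the Cxcl1 and Cxcl2 levels was not tested.

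**Figure D5:**
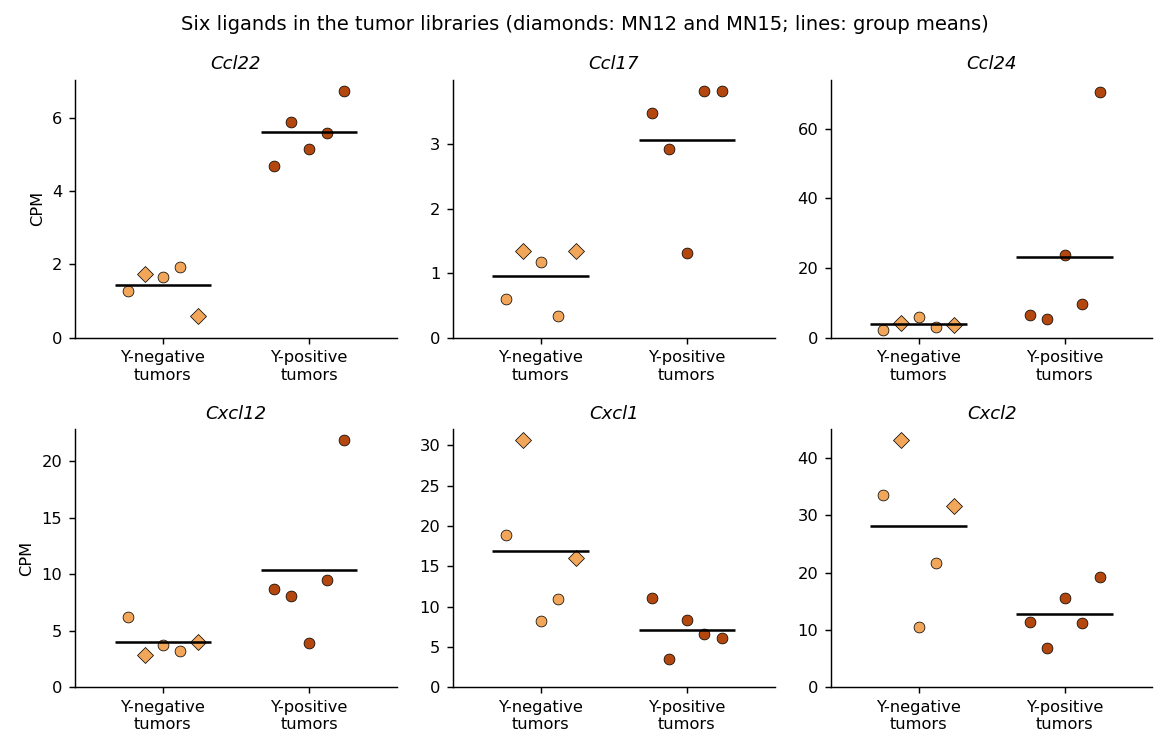
Level of 6 ligands in each tumor library (y axis, CPM, linear) by genotype; circles and diamonds are libraries, diamonds are MN12 and MN15, and bars are group means. Ccl22 is the panel with no overlap (0.59 to 1.93 CPM against 4.70 to 6.73 CPM), and in the Ccl24 panel 70.6 CPM in MP9 lifts the mean.

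Neither CXCR3 ligand was called. Cxcl9, which interferon-gamma induces in macrophages, was at 27.5, 99.0, 62.9, 39.5 and 108 CPM in Y-negative and 84.4, 88.5, 251, 100.5 and 197 CPM in Y-positive tumors, with a log2 change of -1.08 ± 0.42 (adjusted p = 0.156 in edgeR's test). Cxcl10, given by library above, was at 81.8 ± 19.9 against 80.6 ± 19.4 CPM (SD, n = 5), a change of 0.03 ± 0.22. Ifng itself was under 2.1 CPM in every tumor. T cell markers were 8 of 8 listed, with 7 changes below 0 and none called, and summed to 31.9 to 57.2 CPM in Y-negative and 32.3 to 79.7 CPM in Y-positive tumors. NK cell markers were 6 of 6 listed, with 5 changes below 0 and none called, and summed to 14.1 to 36.1 CPM against 35.5 to 53.9 CPM, MN15 being the 1 Y-negative tumor above the lowest Y-positive one. Their part in the Cxcl9 level was not tested.

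None of the 4 genes counted here as CCR2 ligands passed the test between the genotypes. Log2 changes were -0.90 ± 0.43 for Ccl8, -0.55 ± 0.36 for Ccl7, -0.43 ± 0.28 for Ccl12 and -0.32 ± 0.28 for Ccl2, with adjusted p-values of 0.229 to 0.523 in edgeR's test. Ccl12, a CCR2 ligand close to Ccl2, was at 25.2, 37.8, 19.7, 19.4 and 48.3 CPM in Y-negative and 30.6, 30.7, 46.8, 47.6 and 48.8 CPM in Y-positive tumors. None of Ccl3, Ccl4, Ccl5, Ccl6 and Ccl9 passed either, with Ccl6 at -0.82 ± 0.37 (adjusted p = 0.207), Ccl5 at -0.69 ± 0.28 (adjusted p = 0.171) and Ccl9 at -0.27 ± 0.39 (adjusted p = 0.711). Ccl9 values were 89.7, 165, 85.0, 71.8 and 207 CPM in Y-negative and 100.3, 61.9, 185, 253 and 151 CPM in Y-positive tumors, fully overlapping. Ccl5 values were 6.39, 13.0, 9.35, 7.55 and 13.4 CPM against 9.47, 14.5, 22.8, 16.3 and 17.7 CPM, where MP6 lay among the Y-negative tumors. The receptor gene Ccr2 was at -0.78 ± 0.24 (adjusted p = 0.0908). Cx3cl1 was at 0.21 ± 0.17, Xcl1, a dendritic cell attractant of NK and T cells, at -0.89 ± 0.71 from 0.34, 2.02, 0.47, 0.17 and 2.37 CPM against 2.64, 0.42, 3.17, 2.74 and 1.26 CPM, and Ccl27a at -0.35 ± 0.38 from 1.88, 4.53, 1.98, 1.30 and 3.87 CPM against 2.59, 3.86, 2.91, 4.85 and 3.29 CPM.

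Over the 26 tested ligands 22 changes were negative and 4 positive, with a median of -0.52, where 51.2% of all genes were negative with a median of -0.01. All 13 ligands seen only in tumors had a negative change (1 called), and of the 12 tested ligands made by cultured cells 8 were negative and 4 positive (0 called). These ligands share libraries, so the signs are not independent of one another. The class seen only in tumors and the count filter also used these tumor levels. A ligand near the mark can thus enter through the genotype where it is higher. Ccl11 reached the class that way, with a mean of 0.968 CPM in Y-negative tumors. The sign counts therefore describe these ligands and do not test them. MP9 held the highest level of 17 of the 26 ligands among Y-positive tumors, MP6 the lowest of 16, MN15 the highest of 12 among Y-negative tumors and MN14 the lowest of 10.

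The tumor comparison moved with the sets of Y-negative tumors. MN12 and MN15 both stood above MN11, MN13 and MN14 for 15 of the 26 ligands, among them Ccl2, Ccl5, Ccl6, Ccl7, Ccl8, Ccl9, Ccl12, Cxcl9, Cxcl10 and Cxcl16, and below them for Ccl11 and Cx3cl1. Over all genes tested, 21.0% were above in both and 39.5% below in both, so much of the transcriptome splits this way. Without MN12 and MN15, edgeR's test called 15 ligands lower, beside 12.2% of all genes called lower and 11.3% called higher, among them Ccl22 (-1.87, adjusted p = 0.00472), Cxcl9 (-1.82, adjusted p = 0.0123), Ccl8 (-1.59, adjusted p = 0.0219) and Ccl2 (-0.83, adjusted p = 0.0334), with 3630 calls over all genes in place of 362. Without MN11, MN13 and MN14 it called none, Ccl22 standing at adjusted p = 0.112, with 21 calls over all genes. Other single libraries moved the count as well: without MN12 Ccl17 was added, without MN15 Ccl1, without MP6 Ccl24 and Ccl11, and without MP7 Cxcl12 and Ccl17. DESeq2 on all 10 tumors called 7 ligands: Ccl22, Ccl17, Ccl11, Cxcl12 and Ccl24 lower, and Cxcl1 and Cxcl2 higher, beside 3.33% of all genes called lower and 5.86% called higher by that tool. The model over all 20 libraries called Ccl17 lower, beside 0.553% of all genes called lower and 1.68% called higher.

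Whether the genotype difference was another in tumors than in cultures was tested for the 16 ligands listed in both. None was called, beside 2.22% of all genes called higher and 2.34% called lower by edgeR's test, and 5 ligands had an unadjusted p under 0.05, as did 22.7% of all genes. Ccl8 had the smallest p, the genotype change in tumors minus that in cultures being -3.09 ± 0.99 on the log2 scale (adjusted p = 0.0714), but its cultures hold 55 and 10 reads in all. For Cxcl1 the difference was 1.88 ± 0.60 in the other direction (adjusted p = 0.0719): the Y-negative level was below the Y-positive one in culture (555 ± 356 against 849 ± 351 CPM, SD, n = 5) and above it in tumors. DESeq2 called Ccl8 alone, beside 5.19% of all genes called lower and 4.48% called higher, and without MN12 and MN15 edgeR called Ccl8, Ccl9, Ccl17 and Ccl27a lower, beside 7.23% of all genes called lower and 6.73% called higher. Leaving out single libraries added calls too: Ccl8 without BN3 (adjusted p = 0.0409) or MN15 (0.0354), Cxcl1 without MB19 (adjusted p = 0.0409), and 2 ligands with Cxcl1 among them without BN9 (adjusted p = 0.0204). Upper-quartile scaling moved the share of higher among all calls of this comparison from 48.6% to 38.4%, with none of the ligands called.

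Few of the listed genes that receive, trim or induce these ligands passed the test between the tumor genotypes. Of 18 receptor genes 13 were tested and 1 was called, Ccr7, described above. The CXCR2 gene stood at 2.31 to 6.16 CPM in all tumors. Of 5 scavenging receptors 3 were tested, and Ackr1, which binds many inflammatory chemokines on vessels and red cells without signalling, rose (11.7, 4.81, 17.2, 17.0 and 13.7 CPM in Y-negative against 2.75, 5.58, 2.64, 3.65 and 5.08 CPM in Y-positive tumors, log2 change 1.68 ± 0.33, adjusted p = 0.0210 in edgeR's test). MN12 was the 1 Y-negative tumor within the Y-positive range for Ackr1, and the call was lost in 6 of 19 alternatives (adjusted p = 0.00394 without MN12 and MN15, 0.397 without MN11, MN13 and MN14). Of 6 trimming and shedding proteases Mmp2, which can cut several chemokines, fell by 1.26 ± 0.30 on the log2 scale (adjusted p = 0.0483), a call lost in 10 of 19 alternatives (adjusted p = 0.0316 without MN12 and MN15, 0.128 without MN11, MN13 and MN14). Dpp4, which trims Cxcl10 and Cxcl12, was at -0.98 ± 0.37 (adjusted p = 0.150) and Mmp9 at 0.57 ± 0.22 (adjusted p = 0.162). Of 18 inducers and their factors 15 were tested and none was called, Nfkbia standing at 0.31 ± 0.12 (adjusted p = 0.173), Irf1 at -0.41 ± 0.17 (adjusted p = 0.178) and Ltb at -1.07 ± 0.46 (adjusted p = 0.194).

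The remaining ligands add ranges only. In tumors Ccl3 and Ccl4, attractants of monocytes and T cells, lay between 3.58 and 11.6 CPM and between 2.12 and 11.1 CPM, and Ccl25, a gut homing ligand of CCR9, between 4.53 and 11.6 CPM, with both genotypes overlapping. Cxcl14 ranged from 5.65 to 15.01 CPM in Y-negative and from 7.38 to 42.0 CPM in Y-positive tumors. Cxcl5, Cxcl13, Cxcl15, Cxcl17 and Ccl28 stayed at or below 3.54 CPM in every tumor, and Ccl28 and Cxcl15 had no reads in several. For Ccl25, Ccl27a, Ccl6, Cxcl10, Cxcl16, Cxcl17 and Xcl1 an annotated gene overlaps on the opposite strand, so the partners' reads cannot be told apart without a strand setting, which is not given in the sources used here. Ccl27a also has near-identical copies in the mouse genome, which makes its counts uncertain. Ccl19 and the Ccl21 genes were not analysed here.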

How the data were processed

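RNA was sequenced from 20 libraries, 5 in each of 4 groups. Per the submitters' processing notes, the tools were STAR 2.7.0d and RSEM 1.3.1 (build mm10), with cutadapt 2.3, MultiQC 1.8 and FastQC 0.11.5; per the labels' protocols, libraries came from a SMARTER mRNA-Seq kit. The values used are the authors' deposited whole-number counts per gene, 14557118 to 21180885 reads a library, and their deposited FPKM values, which set levels side by side between genes. The cell line tables hold no gene with under 31 reads in all. CPM was computed as reads per 1000000 of the library's total, with no pseudocount. Comparisons used edgeR 4.0.16 (R 4.3.3; TMM, filterByExpr, quasi-likelihood test) over all genes, with Benjamini-Hochberg adjustment, and a gene was called at an adjusted p under 0.05. Alternatives were DESeq2 1.42.0, limma-voom (limma 3.58.1), other scalings, no filter, a covariate for the slope on gene length, a model over all 20 libraries, the tumor sets apart and each library left out. Scripts were tested on simulated data. The members and gene lists were chosen with earlier results of these data known. Ligands were given by library where they were called, had a mean of 20 CPM or more in a group, or led their receptor group; up to 4 genes a list were named. Replicate numbers follow accession order and pair nothing. The authors' deposited signal column, read counts divided by a constant per library except for MN14, was not used. For MN14 that column equalled the MN13 one in all 28025 genes, whereas their counts were equal in 19.9% of genes. Some items of the gene lists are not reported here.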

Additional observations from a re-analysis of the deposited data

Results flagged for a closer look

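In 7 of 76 sets of 5 libraries, each the values of 1 ligand in 1 group, the highest or lowest library stood apart from the other 4 by Dixon's test at its 95% critical value (0.71 for 5 libraries), where chance gives about 5% of sets. In Y-positive tumors MP9 stood above the others for Ccl24 at 70.6 CPM (others 5.45 to 23.9 CPM), for Ccl25 at 11.6 CPM (6.17 to 6.97 CPM) and for Cxcl5 at 3.54 CPM (0.36 to 1.08 CPM). MP8 stood above the other Y-positive tumors for Cxcl16, at 65.6 CPM against 43.3 to 46.9 CPM. In Y-positive cultures MB19 was low for Ccl7, at 22.2 CPM against 54.7 to 67.6 CPM, and MB34 was high for Ccl9, at 66.5 CPM against 15.9 to 25.8 CPM. In Y-negative cultures BN9 was high for Cxcl2, at 1644 CPM against 253 to 471 CPM.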

How the results depend on the processing

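Counts of called ligands between tumor genotypes went from 1 to 4 with no filter, 7 by DESeq2, 3 with the slope on gene length as a covariate, 15 without MN12 and MN15, 0 without MN11, MN13 and MN14, and 1 to 3 with single libraries left out. The 20-library model also called 1, but this was Ccl17, since Ccl22 is not in that fit. Over all genes the 362 calls became 1331 by DESeq2, 648 with the length slope, 3630 and 21 without those sets, and 80 to 796 with single libraries left out. Between cell line genotypes, DESeq2 called 1 ligand and the 20-library model 1 in place of 0 (0 with any single library left out). The 4 calls over all genes became 472 by DESeq2, 13 by limma-voom, 50 with the length slope, 457 in the 20-library model and 2 to 66 with single libraries left out. For the difference of differences, DESeq2 called 1 ligand, the fit without MN12 and MN15 called 4, and single libraries left out gave 0 to 2. Its 627 calls over all genes became 1276 by DESeq2, 1962 without MN12 and MN15, 6 without MN11, MN13 and MN14, and 171 to 1043 with single libraries left out. Fewer libraries enter the fits without a set; the cause of the other shifts was not tested.

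Signs turned only in ligands that edgeR's test on all libraries had not called in the same comparison. Between tumor genotypes, Ccl2, Ccl7, Ccl12, Ccl27a and Xcl1 among them were called in 1 alternative each. Between tumor genotypes, without MN11, MN13 and MN14 the log2 changes were 0.13 for Ccl12, 0.18 for Ccl2, 0.31 for Ccl27a, 0.0077 for Ccl7, 0.36 for Ccl9, 0.23 for Cxcl3 and 0.16 for Xcl1. With the length slope they were 0.12 for Ccl2, 0.064 for Ccl27a, 0.069 for Ccl7, 0.34 for Ccl9 and 0.22 for Cxcl3. Cxcl10 was at -0.019 with upper-quartile scaling, -0.018 in the 20-library model and -0.33 without MN12 and MN15. With single libraries left out the ranges were -0.59 to 0.016 for Ccl9, -0.14 to 0.12 for Cxcl10 and -0.20 to 0.066 for Cxcl3. Between cell line genotypes Cxcl2 was at 0.037 with upper-quartile scaling and 0.10 with the length slope, and with single libraries left out it ranged from -0.86 to 0.30, and Cxcl10 from -0.67 to 0.0076. Upper-quartile scaling moved the median log2 change of all genes by 0.109 between Y-negative tumors and cultures and by 0.180 between Y-positive ones. Tumor against culture counts of called ligands stayed at 12 to 14 and 13 to 14 with single libraries left out. No paired analysis was possible because replicate numbers follow accession order only.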
